A study of Mus musculus with 10 samples.

Results

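The genes described here are 10 antioxidant genes of mouse fat: Nqo1, Gclc, Gclm, Txnrd1, Hmox1, Sod1, Sod2, Sod3, Cat and Gpx3. They were listed by name, as enzymes that remove oxidants or as genes that the transcription factor NRF2 is known to switch on. All 10 were found among 52636 gene identifiers, and all 10 passed the filter on low counts that left 15927 genes to test. The 5 knockout libraries came from inguinal white adipose tissue, a fat depot under the skin, of C57BL/6 mice with floxed Tcf7l2 alleles and the Cre transgene that the labels write as Adp-Cre. The 5 control libraries came from the same depot of mice with floxed alleles and no Cre, although their genotype label reads wild type. The titles write the gene as TCF7, or as TCF in 1 control, where the genotype label of the knockouts reads Tcf7l2. Mice of both groups were 6 months old and had been fed a high-fat diet of 65%, for 16 weeks in the diet label, 12 weeks in the sample description and 4 months in the treatment protocol. The title of the series places the deletion in adipocytes, and the labels do not spell out the promoter that drives the Cre. They also do not say in words that each library came from a separate mouse, so the p-values measure the spread between these samples. The question was how loss of Tcf7l2, a transcription factor of the Wnt pathway, in fat cells bears on gene expression under a high-fat diet.

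NRF2, encoded by Nfe2l2, is held in the cytoplasm and sent for degradation by KEAP1, and oxidants or electrophiles that react with KEAP1 let it enter the nucleus. There it binds antioxidant response elements with small MAF proteins and raises genes for quinone reduction, glutathione synthesis, thioredoxin reduction and heme breakdown. Superoxide is turned into hydrogen peroxide by superoxide dismutases in the cytosol (SOD1), the mitochondria (SOD2) and outside cells (SOD3), and the peroxide is removed by catalase in peroxisomes and by peroxidases such as the secreted GPX3. In white fat, hydrogen peroxide also takes part in insulin signalling and in adipocyte formation, and fat is among the tissues that make GPX3.

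Txnrd1 and Gpx3 encode selenoproteins, in which a TGA codon is read as selenocysteine, the residue at the active site. The bases around that codon are shown because Gpx3 is set below against Gpx1 and Gpx4, a pair of peroxidases that use the same residue. The codon stands in capitals in these coding sequences from GENCODE release M21 on GRCm38. It lies at codon 73 of Gpx3 (chr11:54907256-54907258, plus strand) and at codon 498 of Txnrd1 (chr10:82896037-82896039, plus strand). In Gpx1 it is codon 47 (chr9:108339451-108339453, plus strand), and in Gpx4 it is codon 73 (chr10:80054737-80054739, plus strand).
Gpx3: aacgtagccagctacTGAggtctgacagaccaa
Txnrd1: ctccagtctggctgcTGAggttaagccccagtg
Gpx1: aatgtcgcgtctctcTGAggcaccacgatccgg
Gpx4: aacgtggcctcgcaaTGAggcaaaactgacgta

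Promoter windows of 300 bases, from 250 bases before to 50 after a RefSeq start on GRCm38.p6, were given for 7 of the 10 genes, in 9 windows. They were searched on both strands, with overlapping matches counted separately, for the core of the antioxidant response element (TGACNNNGC), for a TCF/LEF motif (CTTTGAT) and for the GC box (GGGCGG). The antioxidant response element core was found in 3 of the 9 windows, against 12.4% of 32851 windows of that length. These were in Gclm, Sod1 and the second of the Txnrd1 windows. The TCF/LEF motif was in 0 of the 9, against 3.73% of all windows, and the GC box in 7 of the 9, against 35.7%. Sod2, Sod1 and Gclm each had 4 GC boxes, a number reached by 5.49% of all windows. A match is a run of letters, not a sign of binding.

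The 3 cores are shown with 10 bases on each side, since Gclm, Sod1 and Txnrd1 are classed as NRF2 targets or antioxidants by function and these are the matches found. Each reads as the reverse complement of the motif, in capitals, and begins 134, 56 and 92 bases before the start of Gclm, Sod1 and Txnrd1 in that order.
Gclm: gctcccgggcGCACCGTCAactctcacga
Sod1: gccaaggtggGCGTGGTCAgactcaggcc
Txnrd1: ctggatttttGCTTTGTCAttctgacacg

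Sequence upstream of the start is given for Gclm (250 bases, chr3:122245307-122245556, plus strand), which holds a match to the element, and for Sod2 (228 bases, chr17:13007589-13007816, plus strand), whose RNA was higher in the knockout and whose window holds none. For Sod2 the last bases before the RefSeq start are left out, since they lie in an exon of GENCODE M21. In that annotation the Sod2 gene begins at chr17:13006846, so the printed stretch is upstream of the RefSeq start but within the annotated gene span. Capitals mark GC boxes on either strand and, in Gclm, the element core. Boxes of the window that lie after the start are not shown.
Gclm: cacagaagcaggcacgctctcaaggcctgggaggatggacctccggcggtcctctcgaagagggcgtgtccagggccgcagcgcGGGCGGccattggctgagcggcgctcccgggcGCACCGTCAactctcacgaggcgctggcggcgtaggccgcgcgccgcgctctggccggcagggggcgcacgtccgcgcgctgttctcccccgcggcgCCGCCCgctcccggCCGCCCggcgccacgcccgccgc
Sod2: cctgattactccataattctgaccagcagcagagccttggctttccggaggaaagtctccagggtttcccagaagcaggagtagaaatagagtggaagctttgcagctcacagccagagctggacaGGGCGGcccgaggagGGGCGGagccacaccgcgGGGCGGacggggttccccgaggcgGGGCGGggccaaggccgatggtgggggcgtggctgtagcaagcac

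Total counts ran from 15010152 to 17047144 in the knockout libraries and from 14032866 to 17782073 in the controls. Levels are given in CPM, counts over a common library total after TMM scaling, and 3 counts, the lower limit of detection used here, came to 0.172 to 0.205 CPM in the knockouts and 0.176 to 0.203 CPM in the controls. Tcf7l2 itself had 5.57, 6.14, 6.20, 5.58 and 5.68 CPM in knockout 1 to 5 and 11.1, 10.5, 9.16, 11.4 and 11.1 CPM in control 1 to 5, with no overlap (log2 fold change -0.87 ± 0.096 SE, edgeR adjusted p = 0.000615). Adipoq, which marks adipocytes, averaged 2976 ± 432 CPM in the knockout and 2988 ± 251.9 CPM in the control (SD, n = 5 each). Of 12 adipocyte markers, 1 was higher and 3 were lower in the knockout, where 5.84% of all tested genes were higher and 7.05% lower, with summed levels of 29236 to 38144 CPM in the knockout and 27480 to 34094 CPM in the control. The adipocyte markers called numbered 1 without knockout 2, control 1 or control 2, and 2 without knockout 5, control 3 or control 4. Of 8 T cell and 8 B cell genes, 5 and 4 were higher in the knockout, and neither list had a call without control 1, control 2 or control 4. The T cell count was 3 without knockout 5 and 2 without control 3, and the B cell count was 1 without knockout 5, 2 without knockout 1, control 3 or control 5, 2 by DESeq2, 0 by limma-voom and 8 with no filter. Knockout 1 stood apart by these lymphocyte markers, with a summed level of 430.3 CPM for 8 B cell genes, where the 5 knockouts had a median of 34.9 CPM and the controls lay between 13.1 and 31.1 CPM. Skeletal muscle markers summed to 662, 115, 523, 45.1 and 39.3 CPM in knockout 1 to 5 and to 24.5, 24.3, 28.8, 70.0 and 500.5 CPM in control 1 to 5, so knockouts 1 and 3 and control 5 were high. Of 7 tested, none was called by edgeR, where 0 had an unadjusted p below 0.05, or by DESeq2, 1 was called by limma-voom or with no filter, and 5 without control 5. The part of these markers in the results was not tested. A score of intronic-type transcripts, the mean log2 CPM of 86 annotated sense-intronic genes, lay between -0.11 and 0.30 in the knockouts and between 0.22 and 1.21 in the controls (exact permutation p = 0.0238). All controls but control 5 lay above every knockout, and control 5, at 0.22, lay inside the knockout range. The score and the genotype thus moved nearly together and cannot be told apart. The library names number the controls 1 to 5 and the knockouts 6 to 10, so anything that follows this numbering cannot be told apart from genotype either.

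Among the 10 antioxidant genes, Sod2 and Hmox1 rose in the knockout, Gpx3 fell, and 7 did not pass the test. Genes were called at an edgeR quasi-likelihood p below 0.05 after Benjamini-Hochberg adjustment over all 15927 tested genes. Of all tested genes, 12.9% were called, 5.84% higher and 7.05% lower. The count of 3 called among 10 genes is small, and nothing particular to these genes is read from it. The median log2 fold change, knockout over control, was 0.07 over the 10 genes and 0.00018 over all tested genes. None of the 10 genes had knockout libraries entirely above or below the controls, a separation seen upward in 4.55% and downward in 4.45% of tested genes. At an unadjusted p below 0.05 there were 4 of the 10, the fourth being Gclm, against 31% of all genes.

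The calls changed with the libraries in the fit, while the log2 fold changes of Sod2, Hmox1 and Gpx3 kept their signs whichever library was left out. Without knockout 2, control 1 or control 2, 0 of the 10 genes were called, while 6.17%, 3.49% and 3.33% of all tested genes were (998, 560 and 537 genes). Gpx3 alone was called without knockout 5 or control 4, against 5.45% and 5.61% of all genes (885 and 903 genes). Sod2 and Gpx3 were called without knockout 3, knockout 4 or control 3, against 9.13%, 10.3% and 10.6% of all genes. Without knockout 1, the library with the lymphocyte genes, Gclm joined the other 3 called genes, against 14.1% of all genes. Without control 5 the same 3 were called, against 19.1% of all genes (3094 genes). With all libraries, DESeq2 called the same 3 and 15.7% of all genes, and limma-voom called these and Gclm and 22.6% of all genes. When the intronic-type score entered the fit as a covariate, 0 of the 10 were called, against 0.264% of all genes. In whole tissue, fewer cells of a type and less RNA per cell cannot be told apart, for any of these genes.

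**Figure D1:**
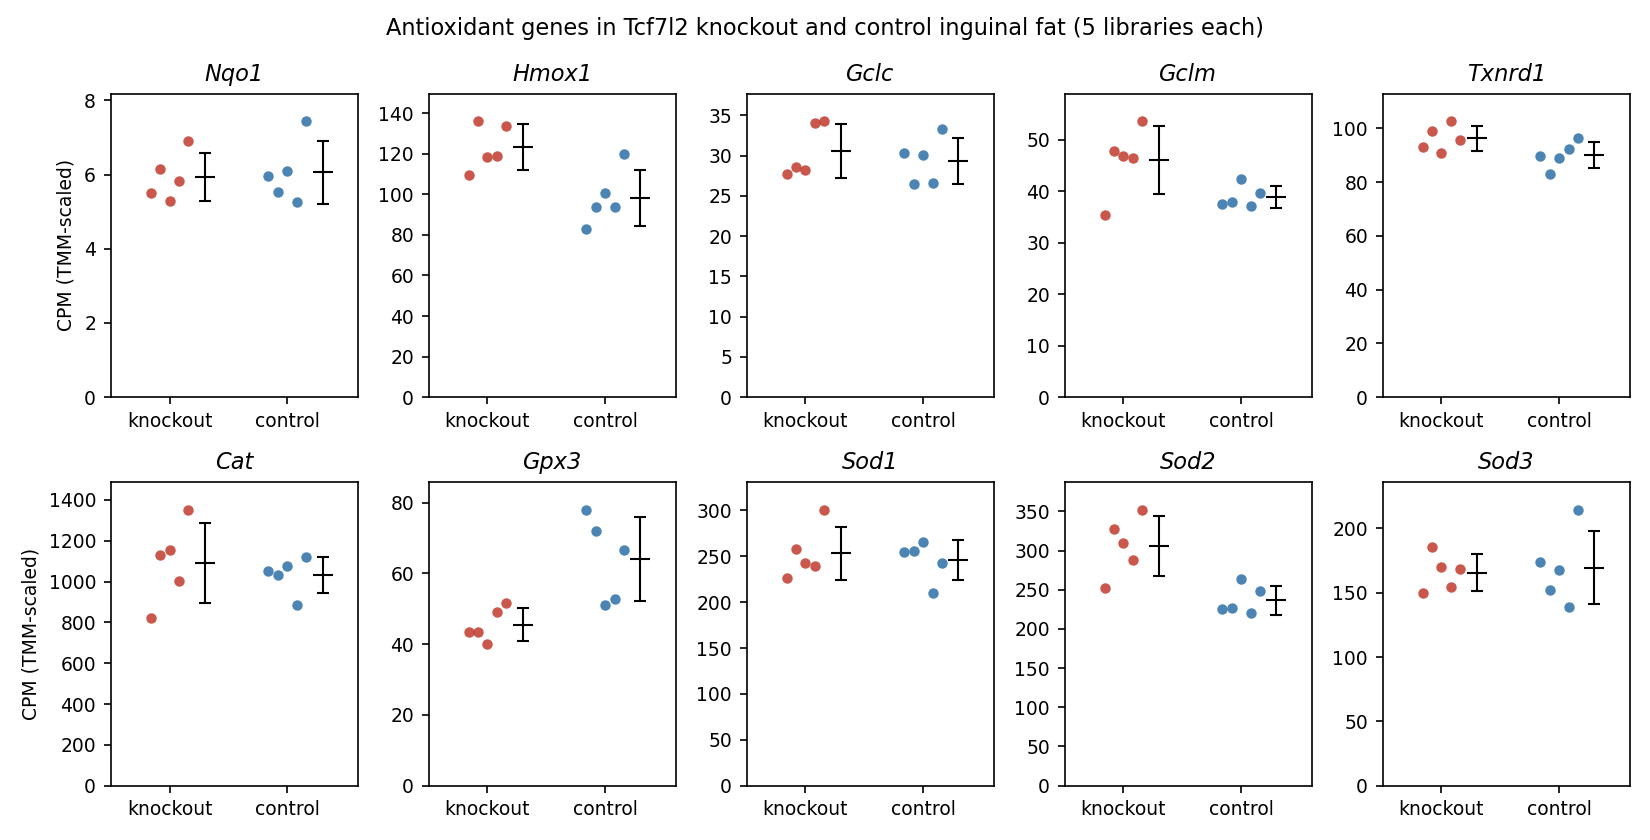
TMM-scaled CPM of the 10 antioxidant genes in each library, knockout in red and control in blue, with the mean and SD of 5 libraries beside the points. Sod2 and Hmox1 sit higher and Gpx3 lower in the knockout, and in every panel at least 1 library lies inside the range of the other group.

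**Figure D2:**
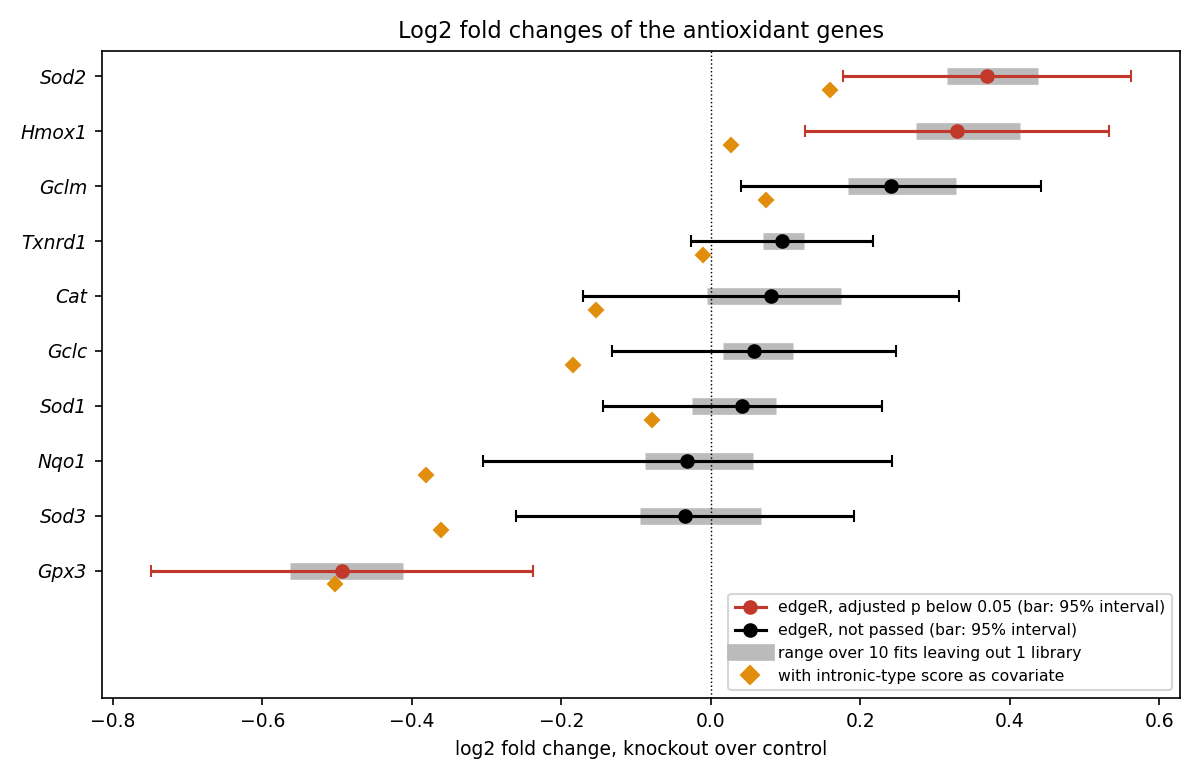
Log2 fold change, knockout over control, of the 10 antioxidant genes with 95% intervals, in order of size. Grey bands give the range over the 10 fits that each leave out 1 library, and diamonds the value fitted beside the intronic-type score. The diamond of Gpx3 lies at -0.50, beside its value of -0.49, and those of the other genes lie lower than their values.

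The quinone reductase and glutathione genes that NRF2 controls did not pass the test. Nqo1 (chr8:107388225-107403206, minus strand), which encodes a reductase of quinones and is widely used as a readout of NRF2, had 5.52, 6.14, 5.28, 5.84 and 6.91 CPM in knockout 1 to 5 and 5.95, 5.54, 6.09, 5.27 and 7.44 CPM in control 1 to 5. All 5 knockout values lay within the control range. The log2 fold change was -0.03 ± 0.126 SE (95% interval -0.30 to 0.24, edgeR adjusted p = 0.892). Nqo1 was the least abundant of the 10 genes, with between 78 and 127 counts in a library. Its sign turned without knockout 1, knockout 3 or control 5, within a range of -0.09 to 0.06 over the libraries left out.

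Gclc and Gclm encode the catalytic and the modifier subunit of glutamate-cysteine ligase, the rate-limiting enzyme of glutathione synthesis. Gclc (chr9:77754535-77794485, plus strand) had 27.7, 28.6, 28.2, 34.1 and 34.3 CPM in knockout 1 to 5, against 30.4, 26.4, 30.1, 26.6 and 33.3 CPM in control 1 to 5. The groups overlapped across most of their range, with a log2 fold change of 0.06 ± 0.088 SE (95% interval -0.13 to 0.25, edgeR adjusted p = 0.688). Gclm (chr3:122245557-122270732, plus strand) had 35.5, 47.8, 46.8, 46.5 and 53.7 CPM in knockout 1 to 5, against 37.6, 37.9, 42.4, 37.2 and 39.7 CPM in control 1 to 5. Knockouts 2 to 5 lay above every control, and knockout 1 lay below every control. The log2 fold change of Gclm was 0.24 ± 0.093 SE (95% interval 0.04 to 0.44, edgeR adjusted p = 0.0994, unadjusted p = 0.0222). Without knockout 1 it was 0.33 with an adjusted p of 0.0123, and by limma-voom with all libraries it was 0.28 with an adjusted p of 0.0165. Leaving out this library alone thus brought a call, and 4.7% of its exonic bases are also covered by other genes.

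Txnrd1 (chr10:82833951-82897712, plus strand), the cytosolic thioredoxin reductase, had 93.2, 99.0, 90.8, 103 and 95.8 CPM in knockout 1 to 5. In control 1 to 5 it had 89.8, 83.1, 88.9, 92.3 and 96.5 CPM. Its libraries were the most even of the 10 genes, and the groups overlapped. The log2 fold change was 0.10 ± 0.056 SE (95% interval -0.03 to 0.22, edgeR adjusted p = 0.267). That interval overlaps those of Hmox1 (0.13 to 0.53) and Sod2 (0.18 to 0.56), and no difference between genes was tested.

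Hmox1 (chr8:75093621-75100589, plus strand) encodes heme oxygenase-1, the inducible enzyme that opens heme to biliverdin, iron and carbon monoxide. It had 109, 136, 118, 119 and 134 CPM in knockout 1 to 5, against 82.7, 93.6, 101, 94.0 and 119.8 CPM in control 1 to 5. All 5 knockouts lay above the mean of the controls, and knockouts 2 and 5 lay above every control, control 5 being the highest of them. Hmox1 averaged 123 ± 11.3 CPM in the knockout and 98.1 ± 13.7 CPM in the control (SD, n = 5 each), and rose 1.26-fold (log2 fold change 0.33 ± 0.094 SE, 95% interval 0.13 to 0.53, edgeR adjusted p = 0.0396). Of the 10 fits that each left out 1 library, the call held only without knockout 1 or control 5. It was lost without knockout 2, 3, 4 or 5 and without control 1, 2, 3 or 4, over log2 fold changes of 0.27 to 0.41 and adjusted p-values of 0.00664 to 0.104. Fitted beside the intronic-type score, Hmox1 had a log2 fold change of 0.03 ± 0.101 SE (edgeR adjusted p = 0.953).

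Hmox1 is also known as a gene of macrophages that take up red cells. Of 13 tested macrophage markers, 1 was called (7.69%, against 12.9% of all tested genes), and 5 had a positive sign. The called gene was Marco, a scavenger receptor, at 7.63 ± 2.77 CPM in the knockout and 3.94 ± 0.657 CPM in the control (edgeR adjusted p = 0.0210). The call of Marco was lost without control 1, control 2 or control 4. The summed level of the macrophage list ran from 1907 to 2286 CPM in the knockout and from 1984.5 to 2466 CPM in the control. Of 7 tested red cell markers none was called by edgeR, DESeq2 or limma-voom, and 0 had an unadjusted p below 0.05, with summed levels of 597 to 1466 CPM in the knockout and 881 to 1334 CPM in the control. None of the markers of either list was at 0 in all libraries, and their part in the Hmox1 result was not tested. Hmox2, the constitutive heme oxygenase, averaged 53.2 ± 5.63 CPM in the knockout and 47.8 ± 2.58 CPM in the control and did not pass the test (log2 fold change 0.15 ± 0.076 SE, edgeR adjusted p = 0.186). Of its exonic bases, 40.2% are also covered by other genes. The ratio of Hmox1 to Hmox2 within a library was 2.41, 2.72, 2.17, 2.13 and 2.23 in knockout 1 to 5 and 1.84, 2.05, 2.03, 1.95 and 2.35 in control 1 to 5, so the groups overlapped through control 5.

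Of the 3 superoxide dismutases, the mitochondrial enzyme alone passed the test. Sod2 (chr17:13006846-13040063, plus strand) had 251.9, 328, 309.7, 288 and 352 CPM in knockout 1 to 5, against 225, 226, 263, 221 and 249 CPM in control 1 to 5. Knockouts 2 to 5 lay above every control, and knockout 1 lay below control 3. Sod2 averaged 306 ± 38.2 CPM in the knockout and 237 ± 18.4 CPM in the control (SD, n = 5 each), and rose 1.29-fold (log2 fold change 0.37 ± 0.089 SE, 95% interval 0.18 to 0.56, edgeR adjusted p = 0.0230). The call was lost without knockout 2, knockout 5, control 1, control 2 or control 4, with log2 fold changes of 0.32 to 0.44 and adjusted p-values of 0.00769 to 0.0687 over all 10 such fits. Fitted beside the intronic-type score, Sod2 had a log2 fold change of 0.16 ± 0.126 SE (edgeR adjusted p = 0.702). Stretches of at least 100 bases at 95% identity lie in transcripts of 13 other genes, at most 193 bases long. Some reads may therefore belong elsewhere, and their share was not tested.

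Sod1 (chr16:90220754-90226329, plus strand), the copper and zinc enzyme of the cytosol, had 226, 258, 242, 239 and 301 CPM in knockout 1 to 5, against 255, 256, 266, 210.0 and 243 CPM in control 1 to 5. Knockout 5 lay above every control, and the other 4 knockouts lay within the control range. The log2 fold change was 0.04 ± 0.086 SE (95% interval -0.14 to 0.23, edgeR adjusted p = 0.776), and its sign turned without knockout 5 or control 4. A pseudogene, Gm8566, carries a near-identical copy of 465 bases. Sod3 (chr5:52363791-52371418, plus strand), the extracellular enzyme, had 149.7, 186, 170.2, 154 and 169 CPM in knockout 1 to 5, against 174, 152, 168, 139 and 215 CPM in control 1 to 5. All 5 knockouts lay within the control range, whose upper end was control 5. Its log2 fold change was -0.03 ± 0.105 SE (95% interval -0.26 to 0.19, edgeR adjusted p = 0.857), and the sign turned without knockout 1 or control 5 and by limma-voom.

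Set against Sod1 within the same library, Sod2 separated the groups. The ratio of Sod2 to Sod1 CPM was 1.11, 1.27, 1.28, 1.21 and 1.17 in knockout 1 to 5, against 0.883, 0.883, 0.991, 1.05 and 1.02 in control 1 to 5. Every knockout lay above every control, and knockout 1, which lay inside the control range for Sod2 alone, was also above the controls in the ratio. These ratios do not depend on the scaling between libraries. They were computed after the values of both genes had been seen and are given as a description with no test.

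**Figure D3:**
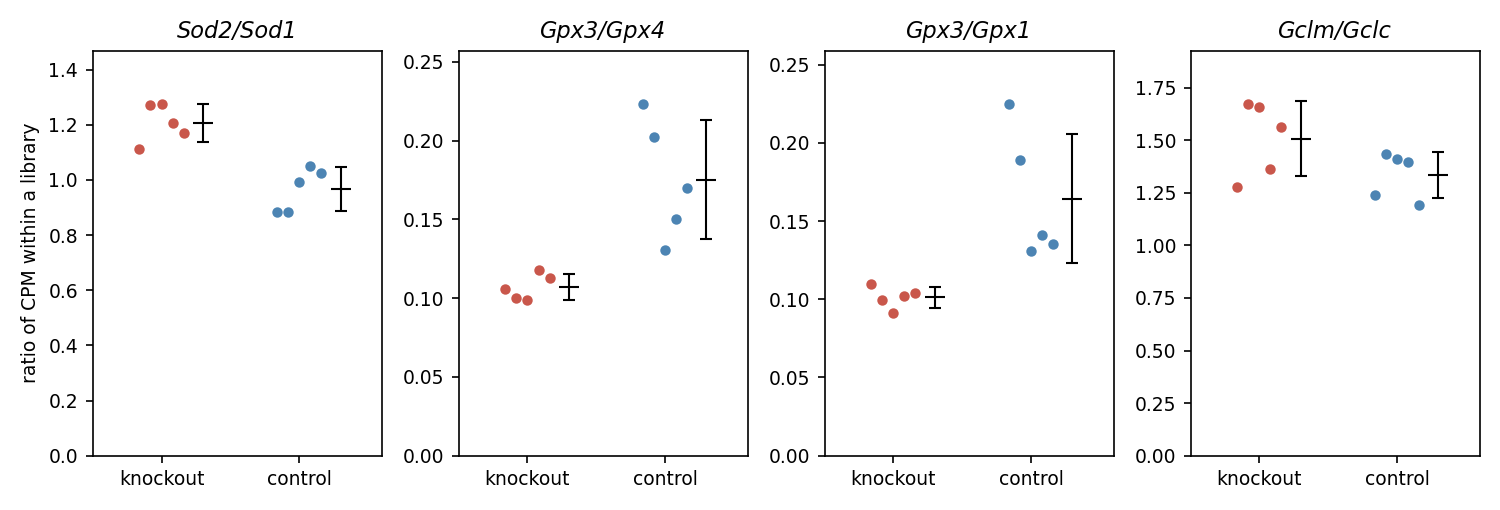
Ratio of the CPM of 2 genes within each library, knockout in red and control in blue, with the mean and SD of 5 libraries. The Sod2 to Sod1 ratio was at or above 1.11 in the knockouts and at or below 1.05 in the controls, the ratios of Gpx3 to Gpx4 and to Gpx1 were lower in all knockouts, and the Gclm to Gclc ratios overlapped.

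Cat (chr2:103453849-103485160, minus strand) encodes catalase, which splits hydrogen peroxide in peroxisomes. It had 820.4, 1128, 1157, 1004 and 1353 CPM in knockout 1 to 5, against 1049.8, 1034, 1075, 887 and 1119 CPM in control 1 to 5. Knockout 1 lay below every control, while knockouts 2, 3 and 5 lay above every control. The coefficient of variation was 18.02% in the knockout and 8.47% in the control. With this spread the log2 fold change was 0.08 ± 0.116 SE (95% interval -0.17 to 0.33, edgeR adjusted p = 0.672), and it was -0.0052 without knockout 5. Knockout 1 was also the lowest knockout for Gclc, Gclm, Sod1, Sod2, Sod3 and Hmox1.

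Gpx3 (chr11:54902453-54910377, plus strand) encodes the secreted glutathione peroxidase of plasma and was the only member to fall. It had 43.4, 43.5, 39.9, 49.2 and 51.6 CPM in knockout 1 to 5, against 78.0, 71.9, 51.1, 52.7 and 66.6 CPM in control 1 to 5. Knockouts 1 to 4 lay below every control, and knockout 5 lay between control 3 and control 4. Gpx3 averaged 45.5 ± 4.76 CPM in the knockout and 64.1 ± 11.8 CPM in the control (SD, n = 5 each), so the knockout mean was 71.0% of the control mean. The log2 fold change was -0.49 ± 0.118 SE (95% interval -0.75 to -0.24, edgeR adjusted p = 0.0226). The call was lost without knockout 2, control 1 or control 2, with log2 fold changes of -0.56 to -0.41 and adjusted p-values of 0.0180 to 0.0681 over the 10 fits. Fitted beside the intronic-type score, Gpx3 had a log2 fold change of -0.50 with a wider SE of 0.194 (adjusted p = 0.444). Of 10 endothelial markers, 8 were also lower in the knockout, where 7.05% of all tested genes were, with summed levels of 897 to 1029 CPM in the knockout and 1073 to 1378 CPM in the control. The endothelial markers called numbered 5 without knockout 3, control 3 or control 4, 3 without knockout 5 or control 1, and 4 without control 2. None of them was at 0 in all libraries, and their part in the Gpx3 result was not tested.

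The intracellular peroxidases that carry the same selenocysteine had positive fold changes where that of Gpx3 was negative. Gpx4, which reduces lipid peroxides in membranes, averaged 425 ± 21.6 CPM in the knockout and 368 ± 22.3 CPM in the control and rose (log2 fold change 0.21 ± 0.063 SE, edgeR adjusted p = 0.0486). That call was lost with RLE size factors, with no filter on low counts, and without any of the libraries other than knockout 1 and control 5. Near-identical copies of Gpx4 lie in 2 pseudogenes. Gpx1, the main peroxidase of the cytosol, averaged 449.9 ± 39.9 CPM in the knockout and 397 ± 56.2 CPM in the control, and its log2 fold change of 0.18 ± 0.096 SE had an edgeR adjusted p of 0.220. Gpx1 was called by limma-voom (log2 fold change 0.24, adjusted p = 0.0334) and without control 5 (0.27, edgeR adjusted p = 0.0292). Fitted beside the intronic-type score, Gpx1 was at -0.11 on the log2 scale. The ratio of Gpx3 to Gpx4 was 0.106, 0.100, 0.0987, 0.118 and 0.113 in knockout 1 to 5, against 0.224, 0.202, 0.130, 0.150 and 0.170 in control 1 to 5. The ratio of Gpx3 to Gpx1 was 0.110, 0.0993, 0.0914, 0.102 and 0.104 in knockout 1 to 5, against 0.225, 0.189, 0.131, 0.141 and 0.135 in control 1 to 5. Every knockout lay below every control in both ratios, a description with no test, chosen after the values were seen. The ratio of Gclm to Gclc was 1.28, 1.67, 1.66, 1.36 and 1.56 in knockout 1 to 5 and 1.24, 1.43, 1.41, 1.40 and 1.19 in control 1 to 5, so those groups overlapped.

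Levels of different genes can be compared only per length. Per kilobase of the principal coding transcript of GENCODE M21, Cat stood at 418 ± 75.4 CPM per kb in the knockout and 395 ± 33.5 in the control, and Sod1 at 395 ± 45.1 and 384 ± 33.8 CPM per kb in knockout and control. These genes overlapped each other, and both lay above the rest. Hmox1 followed at 78.6 ± 7.21 CPM per kb in the knockout and 62.5 ± 8.74 in the control. Sod2 had 52.2 ± 6.52 CPM per kb in the knockout and 40.4 ± 3.15 in the control, and Sod3 had 44.3 ± 3.81 and 45.4 ± 7.67 CPM per kb in knockout and control. Gpx3 had 28.6 ± 2.99 CPM per kb in the knockout and 40.2 ± 7.43 in the control, and Txnrd1 had 27.3 ± 1.33 and 25.5 ± 1.39 CPM per kb in knockout and control. In the control, the order of Sod2 and Gpx3 depended on the length taken. Per kilobase of all exons merged, Sod2 stood at 23.7 ± 1.84 and Gpx3 at 35.3 ± 6.53 CPM per kb there. In the knockout, Sod2 lay above Gpx3 by either length, at 30.6 ± 3.82 and 25.1 ± 2.63 CPM per kb of merged exons. By merged exons Sod2 then lay below Sod3, at 44.3 ± 3.81 CPM per kb in the knockout, which it exceeded per coding transcript.

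Gclc, at 8.94 ± 0.967 CPM per kb in the knockout and 8.58 ± 0.839 in the control, stood close to Gclm, at 8.24 ± 1.18 and 6.97 ± 0.381 CPM per kb in knockout and control. Nqo1 came last, at 3.82 ± 0.409 CPM per kb in the knockout and 3.90 ± 0.540 in the control (SD, n = 5 each throughout). Across all 10 libraries, neighbours in the order were apart at 3 places, between Sod1 and Hmox1, between Txnrd1 and Gclc, and between Gclm and Nqo1. Taking the length of all exons of a gene merged, Sod1 stood at 63.8 ± 7.27 CPM per kb in the knockout and 61.9 ± 5.45 in the control, since its merged exons span 3970 bases and its coding transcript 641. The gap below Sod1 therefore depends on which transcript the reads come from.

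**Figure D4:**
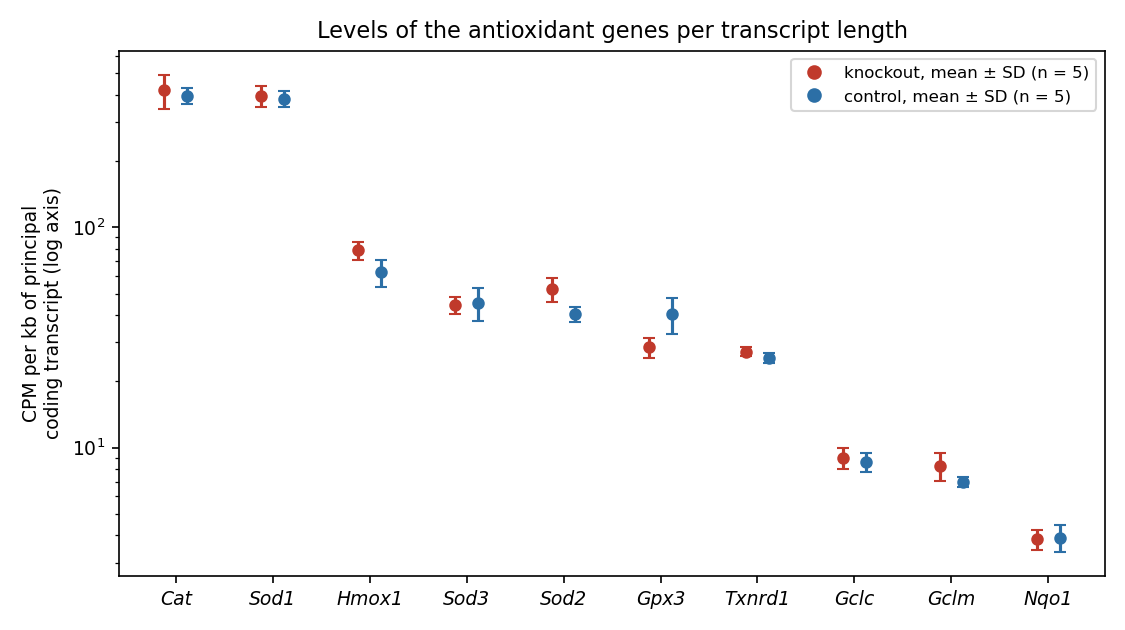
Level of each antioxidant gene in CPM per kilobase of its principal coding transcript on a log axis, mean and SD of 5 libraries, knockout in red to the left of control in blue. Cat and Sod1 stand near 400 CPM per kb and Nqo1 below 4 CPM per kb, and the groups lie apart most for Gpx3 and Sod2.

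Of all tested genes, 12.9% were called, 5.84% higher and 7.05% lower, and 50.02% had a positive sign. Of 10 genes that control NRF2, 1 was called higher and 0 lower, with a median log2 fold change of 0.09. Nfe2l2 had 90.7, 94.3, 103, 108 and 111 CPM in knockout 1 to 5, against 123, 100.1, 106, 105 and 114 CPM in control 1 to 5 (log2 fold change -0.11 ± 0.073 SE, edgeR adjusted p = 0.319). Keap1 averaged 34.4 ± 2.64 CPM in the knockout and 31.4 ± 2.39 CPM in the control (log2 fold change 0.13 ± 0.072 SE, edgeR adjusted p = 0.247), and 10.9% of its exonic bases are shared with another gene. The groups overlapped for both genes. Sqstm1 encodes p62, an autophagy receptor that binds KEAP1. It had 375, 427, 417, 412 and 454 CPM in knockout 1 to 5, against 318, 327, 370.4, 325 and 358 CPM in control 1 to 5. Every knockout lay above every control, and Sqstm1 rose (log2 fold change 0.30 ± 0.069 SE, edgeR adjusted p = 0.0211). Of its exonic bases, 17.3% are shared with another gene. Bach1, a repressor that competes with NRF2 at the Hmox1 gene, averaged 51.9 ± 2.87 CPM in the knockout and 59.2 ± 4.90 CPM in the control (log2 fold change -0.19 ± 0.067 SE, edgeR adjusted p = 0.0746). The call of Sqstm1 was lost without control 1, 2 or 4, and without control 5 the list had 2 calls, Rbx1, a subunit of the ligase that marks NRF2, being the added gene.

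Of 23 other genes classed as NRF2 targets, 3 were higher and 0 lower (13.0% called, close to the 12.9% of all tested genes). Their median log2 fold change was 0.15, and 20 had a positive sign (87.0%, against 50.02% of all tested genes). Most of the other lists leaned the same way, but some share genes with this one. Srxn1, Txn1 and Prdx1 are also in the thioredoxin cycle, and Gsr and Slc7a11 in the glutathione cycle. Blvrb, Ftl1 and Fth1 are also in heme and iron, while peroxisome assembly shares none. The cell type marker lists went either way, from 0% positive for endothelial markers to 100% for T cell genes. Of the lists described below, positive signs made up 84.2% for the thioredoxin cycle and 82.4% for the glutathione cycle and for peroxisome assembly. They made up 75% for selenoproteins, 66.7% for superoxide sources and for heme and iron, and 44.4% for metal supply. For the genes that control NRF2 the share was 60%. Gsta4, a glutathione transferase that clears the lipid peroxidation product 4-hydroxynonenal, had 19.8, 21.9, 24.1, 23.1 and 30.7 CPM in knockout 1 to 5, against 15.4, 8.09, 10.02, 8.45 and 9.90 CPM in control 1 to 5. Every knockout lay above every control. Gsta4 rose 2.30-fold (log2 fold change 1.20 ± 0.169 SE, edgeR adjusted p = 0.00228) and passed in all 10 fits that left out a library. Pgd, an enzyme of the pentose phosphate pathway that makes NADPH, averaged 249.9 ± 28.2 CPM in the knockout and 200.1 ± 7.88 CPM in the control and rose (log2 fold change 0.32 ± 0.077 SE, edgeR adjusted p = 0.0227). Srxn1, sulfiredoxin, averaged 59.1 ± 4.88 CPM in the knockout and 49.1 ± 4.57 CPM in the control and rose (log2 fold change 0.27 ± 0.077 SE, edgeR adjusted p = 0.0407). The list had 1 call without knockout 2, control 1 or control 2, and 5 without knockout 1. The calls of Pgd and Srxn1 were also lost without control 4, and that of Srxn1 without knockout 4 or 5.

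Of 17 genes of the glutathione cycle, 3 were higher and 0 lower (17.6% called, against 12.9% of all tested genes), around a median log2 fold change of 0.18. They were Gpx4 (above), Gpx7, a peroxidase of the endoplasmic reticulum, and Glrx5, a mitochondrial glutaredoxin of iron-sulfur cluster assembly. Gpx7 averaged 30.6 ± 1.86 CPM in the knockout and 25.6 ± 1.76 CPM in the control (log2 fold change 0.25 ± 0.067 SE, edgeR adjusted p = 0.0306), with no overlap. Glrx5 averaged 59.2 ± 6.04 CPM in the knockout and 47.4 ± 5.82 CPM in the control (log2 fold change 0.32 ± 0.091 SE, edgeR adjusted p = 0.0391). The count was 9 without control 5, 1 without knockout 2, and 0 without knockout 5, control 1, control 2 or control 4.

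Of 19 genes of the thioredoxin cycle, 6 were higher and 1 lower (36.8% called, against 12.9% of all tested genes), with a median log2 fold change of 0.17. The genes that rose were the peroxiredoxins Prdx3, Prdx5 and Prdx6, Srxn1, which restores oxidised peroxiredoxins, and the methionine sulfoxide reductases Msra and Msrb1. Prdx6 had 431, 475, 417, 412 and 518 CPM in knockout 1 to 5, against 319.9, 330.4, 404, 354 and 376 CPM in control 1 to 5 (log2 fold change 0.34 ± 0.085 SE, edgeR adjusted p = 0.0262). Every knockout lay above every control. Prdx3, which like SOD2 works in mitochondria, averaged 134 ± 12.5 CPM in the knockout and 111 ± 6.28 CPM in the control (log2 fold change 0.27 ± 0.070 SE, edgeR adjusted p = 0.0289). Msrb1, a selenoprotein, averaged 79.3 ± 6.01 CPM in the knockout and 64.4 ± 5.43 CPM in the control (log2 fold change 0.30 ± 0.072 SE, edgeR adjusted p = 0.0228), with no overlap. Prdx5 (0.25) and Msra (0.30) had edgeR adjusted p-values of 0.0307 and 0.0370. Of the exonic bases of Prdx5, 19.1% are shared with another gene. Txnip, the inhibitor of thioredoxin, had 691, 867, 805, 1092 and 1029 CPM in knockout 1 to 5 and 1208, 1316, 1477, 1095 and 1046 CPM in control 1 to 5. Knockouts 1, 2, 3 and 5 lay below every control, and Txnip fell (log2 fold change -0.45 ± 0.129 SE, edgeR adjusted p = 0.0393). Of its exonic bases, 19.4% are shared with other genes. Without knockout 2, knockout 5, control 1, control 2 or control 4 none of the 19 genes was called. The call of Txnip was also lost without knockout 1, knockout 3 or control 3, and that of Msra without knockout 3.

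Of 9 genes that make superoxide, 1 was higher and 1 lower (22.2% called, against 12.9% of all tested genes), around a median log2 fold change of 0.09. Cyba, the membrane subunit of the NADPH oxidases, averaged 77.4 ± 6.27 CPM in the knockout and 63.3 ± 4.42 CPM in the control (log2 fold change 0.29 ± 0.069 SE, edgeR adjusted p = 0.0217). Nox4, a catalytic subunit that mainly releases hydrogen peroxide, averaged 20.4 ± 3.01 CPM in the knockout and 28.0 ± 5.73 CPM in the control (log2 fold change -0.45 ± 0.136 SE, edgeR adjusted p = 0.0458). Cyba rose and Nox4 fell, with 1 knockout library of each inside the control range. The call of Nox4 was lost in 9 of the 10 fits that left out a library, all but the fit without knockout 4, and that of Cyba without control 1 or control 2.

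Of 18 genes of heme and iron handling, 4 were higher and 0 lower (22.2% called, against 12.9% of all tested genes), around a median log2 fold change of 0.11. Blvra, biliverdin reductase, which takes up the product of HMOX1, had 72.0, 76.2, 66.1, 70.8 and 71.9 CPM in knockout 1 to 5, against 55.1, 60.9, 63.4, 58.2 and 62.6 CPM in control 1 to 5. Every knockout lay above every control (log2 fold change 0.25 ± 0.058 SE, edgeR adjusted p = 0.0207). Slc48a1, the heme transporter of endosomes, averaged 347 ± 56.3 CPM in the knockout and 266 ± 22.5 CPM in the control (log2 fold change 0.38 ± 0.107 SE, edgeR adjusted p = 0.0370). Urod, an enzyme of heme synthesis, had a log2 fold change of 0.24 (edgeR adjusted p = 0.0445). The iron stores Ftl1 and Fth1, known NRF2 targets, had log2 fold changes of 0.19 and 0.05 and did not pass (edgeR adjusted p = 0.176 and 0.750). Without control 4 Ftl1 was called (log2 fold change 0.28, edgeR adjusted p = 0.0369). Of the exonic bases of Ftl1, 34.6% are shared with other genes, and near-identical copies lie in transcripts of 11 other genes. The count was 0 without knockout 2, control 1 or control 2, and 1 without knockout 3, knockout 5 or control 4. The call of Slc48a1 was also lost without knockout 4, and that of Urod without control 5 and with upper-quartile factors.

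Of 9 genes of copper, zinc and manganese supply, 1 was higher and 0 lower (11.1% called, against 12.9% of all tested genes). The median log2 fold change was -0.01. The called gene was Atox1, a copper chaperone, at 81.2 ± 7.42 CPM in the knockout and 64.6 ± 6.85 CPM in the control (log2 fold change 0.33 ± 0.084 SE, edgeR adjusted p = 0.0263). Ccs, which loads copper into SOD1, was at 0.15 ± 0.068 SE on the log2 scale (edgeR adjusted p = 0.155). The count was 0 without knockout 2, knockout 5, control 1 or control 2, and 2 without knockout 1 or control 5. Of 17 genes of peroxisome assembly, 3 were higher and 0 lower (17.6% called, against 12.9% of all tested genes), around a median log2 fold change of 0.14. Pex5 (0.27) and Pex7 (0.23), the import receptors for peroxisomal enzymes, and Pex14 (0.32), their docking partner, had edgeR adjusted p-values of 0.0394, 0.0465 and 0.0393. Of the exonic bases of Pex14, 28.3% are shared with another gene. None of the 17 was called without knockout 2, knockout 3, knockout 5, control 1, control 2 or control 4, Pex14 and Pex7 were not called without control 5, Pex14 not without knockout 1, Pex7 not without knockout 4, and Pex5 not without control 3. Pex7 was also not called with upper-quartile factors or with no filter.

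Of 16 selenoproteins and genes of selenocysteine synthesis, 2 were higher and 0 lower (12.5% called, against 12.9% of all tested genes), around a median log2 fold change of 0.14. Sephs2, selenophosphate synthetase (0.34), and Eefsec, the elongation factor for selenocysteine (0.36), had edgeR adjusted p-values of 0.0288 and 0.0375. They share 36.4% and 11.0% of their exonic bases with other genes. Selenop, the plasma selenium carrier, averaged 2576 ± 438 CPM in the knockout and 2489 ± 175 CPM in the control (log2 fold change 0.05, edgeR adjusted p = 0.797). Both genes of this list that passed the test rose, while Gpx3 fell. The count was 0 without knockout 2, knockout 3, knockout 5, control 1, control 2 or control 4, 1 without knockout 4 or control 3, where Eefsec was lost, and 5 without control 5. Eefsec was also not called with no filter on low counts (edgeR adjusted p = 0.0506). Fitted beside the intronic-type score, no gene of the 9 lists was called, Gsta4 included (log2 fold change 1.02, adjusted p = 0.309).

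**Figure D5:**
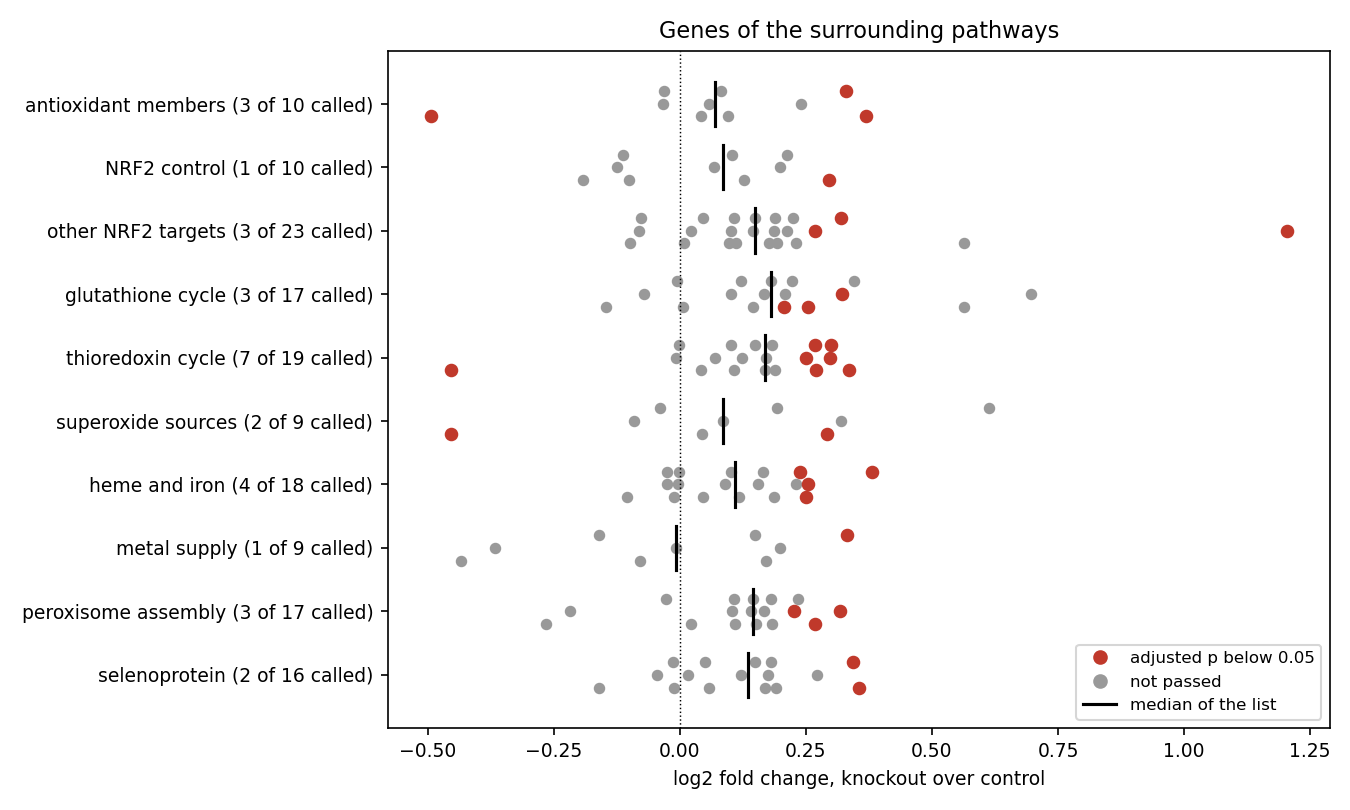
Log2 fold change, knockout over control, of the 10 antioxidant genes and of the genes of 9 surrounding lists, with called genes in red, genes that did not pass in grey and the list median as a bar. The list medians lie between -0.01 and 0.18, and Gsta4 stands apart at 1.20.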

How the data were processed

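RNA of 10 libraries of inguinal fat, 5 knockout and 5 control, was sequenced after ribosomal RNA depletion with a kit that marks strand, per the labels' protocols. The values are raw counts of reads per gene, deposited by the authors as a single table with no normalization. The submitters' processing notes name the GRCm38 build, the aligner STAR 2.5.2b, the counter featureCounts 1.5.1 and DESeq2 1.16.0. Which annotation and strand setting were used, and how multi-mapped reads were counted, was not given in the sources used here. Overlapping genes and near-identical copies may therefore share reads.

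Identifiers were matched to GENCODE M21 (52489 of 52636). Genes were filtered with filterByExpr, scaled by TMM and tested in edgeR 4.0.16 (R 4.3.3) by quasi-likelihood, two-sided, with no covariate and Benjamini-Hochberg adjustment over 15927 genes. SE is the log2 fold change divided by the root of its F value. Alternatives were RLE and upper-quartile factors, no filter, DESeq2 1.42.0, limma-voom (limma 3.58.1) with quality weights, an intronic-type score as a covariate, and leaving out each library. The exact permutation test ran over every split of the 10 libraries into 5 and 5, with 0.00794 as its smallest p. Same-group pairs differed by more than sampling noise (chi-square per degree of freedom 7.28 to 29.7), so no pair was taken for the same library deposited again. Floors cover counting error only. Replicate numbers follow record order and pair nothing.

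Besides the 10 genes, Tcf7l2, Nfe2l2 and Keap1, the rule named the 3 genes of smallest p in each of 9 pathway lists. Adipoq, Marco, Hmox2, Gpx1, Selenop, Ftl1, Fth1 and the further called genes of the lists (Prdx5, Msra, Txnip) were named after their values were seen. Some genes stand in more than 1 list, and 1 called gene of a list is counted but not reported here by name. The 10 genes, the lists and the tests were chosen with earlier results of these data known.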

Additional observations from a re-analysis of the deposited data

Results flagged for a closer look

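The 108 groups of 5 libraries examined covered 54 genes, among them those named in the text and in the observations. In 8 groups a library's gap to the nearest other exceeded Dixon's 95% limit, where chance alone flags about 1 in 20. Of the 54 genes, 40 were named by rule and 14 were added after their values were seen, some for their spread. Mt2, Slc7a11, Selenop and Ftl1 were among those added, so the 8 flags cannot be set against that rate. None of the 8 was in the 10 antioxidant genes. Gsta4 stood at 15.4 CPM in control 1, where the other controls lay between 8.09 and 10.02 CPM. Gpx7 stood at 33.8 CPM in knockout 2, against 29.1 to 30.3 CPM in the other knockouts. Cyba stood at 71.0 CPM in control 4, against 60.5 to 62.9 CPM in the other controls. Pex5 stood at 93.8 CPM in knockout 2, against 68.3 to 75.6 CPM in the other knockouts. Mt2 stood at 16.3 CPM in knockout 1, against 4.55 to 7.87 CPM in the other knockouts. Slc7a11 stood at 7.30 CPM in knockout 1, against 0.973 to 1.92 CPM in the other knockouts. Selenop stood at 2789 CPM in control 5, against 2357 to 2482 CPM in the other controls. Ftl1 stood at 553.8 CPM in control 4, against 400.5 to 427.9 CPM in the other controls, and was called higher without that library (adjusted p = 0.0369). Without knockout 2, Gpx7 and Pex5 lost their calls (adjusted p = 0.0732 and 0.0639). Gsta4 kept its call without control 1, and Cyba without control 4.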

How the results depend on the processing

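No paired analysis was possible because the replicate numbers follow record order and pair no libraries. Under RLE factors, upper-quartile factors, no filter and DESeq2, Sod2 and Hmox1 stayed called higher and Gpx3 lower. Calls over all genes numbered 2046, 2021, 2339 and 2696 there, and 56.1% of calls were higher with no filter, against 45.3% as reported. Limma-voom gave 3605 calls over all genes, called Gclm (0.28), turned Sod3 to 0.066, and called 6 other NRF2 targets, 8 glutathione, 2 metal supply, 6 peroxisome and 6 selenoprotein genes.

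Adipoq turned to 0.022 with no filter, 0.013 by DESeq2 and 0.039 by limma-voom.

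The planned score of intronic-type transcripts was not run, as its earlier definition was not at hand, and a definition chosen after seeing the data took its place. With it 42 genes were called, 0 of the 10 antioxidant genes in either direction and 0 in each pathway list. Log2 fold changes were 0.026 for Hmox1, 0.16 for Sod2 and -0.50 for Gpx3, no longer called, and turned to -0.18 for Gclc, -0.010 for Txnrd1, -0.15 for Cat, -0.078 for Sod1, -0.11 for Gpx1, -0.056 for Selenof, -0.17 for Selenop, -0.19 for Fth1 and -0.0069 for Slc31a1. The cause was not tested, since the score and genotype cannot be told apart.

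Leaving out each library gave 537 to 3094 calls over all genes, 0 to 3 antioxidant genes higher and 0 to 1 lower. Log2 fold changes ran from -0.088 to 0.057 for Nqo1, 0.27 to 0.41 for Hmox1, 0.017 to 0.11 for Gclc, 0.18 to 0.33 for Gclm, 0.070 to 0.12 for Txnrd1, -0.0052 to 0.17 for Cat, -0.024 to 0.087 for Sod1, 0.32 to 0.44 for Sod2, -0.095 to 0.068 for Sod3 and -0.56 to -0.41 for Gpx3. Called genes numbered 0 to 2 in the NRF2 control list, 1 to 5 in other NRF2 targets, 0 to 9 in the glutathione cycle, 0 to 10 in the thioredoxin cycle, 0 to 2 in superoxide sources, 0 to 4 in heme and iron, 0 to 2 in metal supply, 0 to 3 in peroxisome assembly and 0 to 5 in selenoproteins. Mt1 ran from -0.54 to 0.19 and Mt2 from -0.83 to 0.14, positive only without control 5, and Slc7a11 from -0.23, without knockout 1, to 0.84. Adipoq ran from -0.053 to 0.075 and Selenop from -0.017 to 0.14. Of the 10 antioxidant genes, Nqo1 is limited most by depth, at 78 to 127 counts a library.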

Other observations

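A few further oxidant-responsive genes that were not called were picked after their values were seen, for their spread between libraries. Mt1, a metallothionein that binds zinc and copper, had 117, 54.2, 53.1, 88.5 and 94.6 CPM in knockout 1 to 5 and 54.3, 49.7, 119, 64.0 and 237 CPM in control 1 to 5. Mt2, its neighbour and close relative, had 16.3, 5.35, 4.55, 7.63 and 7.87 CPM in knockout 1 to 5 and 5.48, 4.78, 13.5, 6.76 and 25.8 CPM in control 1 to 5. Both were high in knockout 1, control 3 and control 5, and the groups overlapped (log2 fold changes -0.37 and -0.43, edgeR adjusted p = 0.559 and 0.553). Without control 5 the values were 0.19 and 0.14. Of the exonic bases of Mt2, 73.5% are also covered by a gene on the other strand.

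Slc7a11, the cystine transporter that feeds glutathione synthesis, had 7.30, 0.973, 1.78, 1.92 and 1.64 CPM in knockout 1 to 5 and 0.952, 1.78, 1.41, 2.03 and 3.11 CPM in control 1 to 5. Its log2 fold change was 0.56 with all libraries (edgeR adjusted p = 0.462) and -0.23 without knockout 1.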
